A study of Rattus norvegicus with 8 samples.

Results

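The genes described here are the chemokines, the interleukins and their receptors, chosen by symbol as every gene named Ccl, Ccr, Cxcl, Cxcr or Il followed by a number, less 2 symbols that the rule sets aside. They numbered 109 of the 14506 genes measured with 1 symbol. They were sorted into 60 ligand genes, 46 receptor genes and 3 genes of secreted inhibitors. Il22ra2 was counted with the receptors by its name. Each was read by 1 probe set of the Affymetrix Rat Gene 1.0 ST array.

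Chemokines are small secreted proteins that guide the movement of cells through G protein-coupled receptors, and they are grouped into CC and CXC classes by the spacing of their first cysteines. Interleukins act between leukocytes and on the cells of tissues, mostly through receptors built from a ligand-specific chain and a chain shared by several cytokines. In the vessel wall, smooth muscle, endothelial cells, fibroblasts and resident macrophages carry many of these receptors.

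Transcripts were measured in the ductus arteriosus (DA), the fetal vessel between pulmonary artery and aorta that closes after birth, and in the aorta, both taken from full-term neonates 1 h after birth. The strains were Fischer344 (F344) and Brown-Norway (BN), an inbred strain that has served as a rat model of a ductus that fails to close, and no animal was treated. Each of the 4 groups (F344 DA, F344 aorta, BN DA and BN aorta) held 2 arrays. RNA came from pooled tissues and the labels do not say that replicates came from separate litters, so p-values measure the spread between these samples, which may be technical. In such whole-vessel RNA, fewer cells of a type and less RNA per cell cannot be told apart.

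Values are on a log2 scale, and array medians lay between 6.96 and 7.05. All 8 smooth muscle markers, which define the labelled vessels, were above the median of all values, and their mean was between 11.3 and 11.8 on every array. The first BN DA array stood apart, with a mean of 6.90 over 11 thymocyte and lymphocyte markers where the other 7 arrays had 5.84 to 5.98. The B cell markers among them, Cd79b (7.12) and Ms4a1 (5.19), were not raised on that array. The 15 macrophage markers had means of 7.07 to 7.64 on DA arrays and 7.48 to 7.92 on aorta arrays. The SD of the replicate difference over all genes was 0.349 in BN DA and between 0.196 and 0.258 in the other groups, and over the 109 genes it was 0.26 and between 0.20 and 0.222.

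The first question was which of these genes were above the median of all values, 7.01. Of the 109, 20 had a mean over the 8 arrays above it, which is 18.3%, against 58.6% of all genes. They were, from high to low, Il6st, Cxcl12, Il13ra1, Il10rb, Il4r, Cxcl16, Il11ra1, Il3ra, Il15, Il1rap, Il17ra, Cxcl13, Il1r1, Il18bp, Ccr10, Il27ra, Il1rl2, Ccr7, Cxcr4 and Ccl27. The genes nearest the line were Ccl27 at 7.06 and Cxcr4 at 7.15 inside it and Ccl17 at 7.002 and Il6r at 6.996 outside it. A probe set's value also depends on its probes, so this order is one of signal and not of transcript number. On all 8 arrays 16 of the 109 genes exceeded the median, and 78 exceeded it on none.

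Receptor chains made up most of the genes above the line, with 14 of 46, against 5 of 60 ligands. Among them were chains that several cytokines share. Il6st, which encodes gp130, the signalling chain of the interleukin-6 family, read 11.78 and 11.60 (F344 DA), 11.41 and 11.17 (F344 aorta), 11.70 and 11.79 (BN DA), and 11.30 and 11.32 (BN aorta). Il13ra1 and Il4r, which form the receptor for interleukins 4 and 13, had means of 10.56 and 9.32. Il10rb, the second chain of several receptors of the interleukin-10 family, had a mean of 9.45, Il17ra, shared by interleukin-17 receptors, 7.84, and Il1rap, the accessory chain of the interleukin-1 receptor family, 7.98. The ligand-specific chains Il11ra1 and Il3ra had means of 9.14 and 8.36.

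The 5 ligands above the line were Cxcl12, Cxcl16, Cxcl13, Il15 and Ccl27. Cxcl12, the chemokine that acts through Cxcr4 on progenitor and vascular cells, was between 10.81 and 11.41 on every array and was called in none of the 7 comparisons as deposited, though it was called higher in F344 DA and in the tissue average after centring on brighter genes. Cxcl16, which is made as a membrane-bound chemokine, was between 8.92 and 9.48. The classic inflammatory ligands were below the line, with means of 6.30 for Il1b, 4.94 for Il6, 4.65 for Il1a, 4.90 for Il10 and 5.79 for Il17a. Of 18 CC ligands named Ccl 1 exceeded the median, and of 12 CXC ligands named Cxcl 3. Chemokines with other symbols are not in these counts. Of 8 ligands of the interleukin-1 family 0 exceeded it, and of 5 ligands of the interleukin-6 and interleukin-12 families 0.

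**Figure D1:**
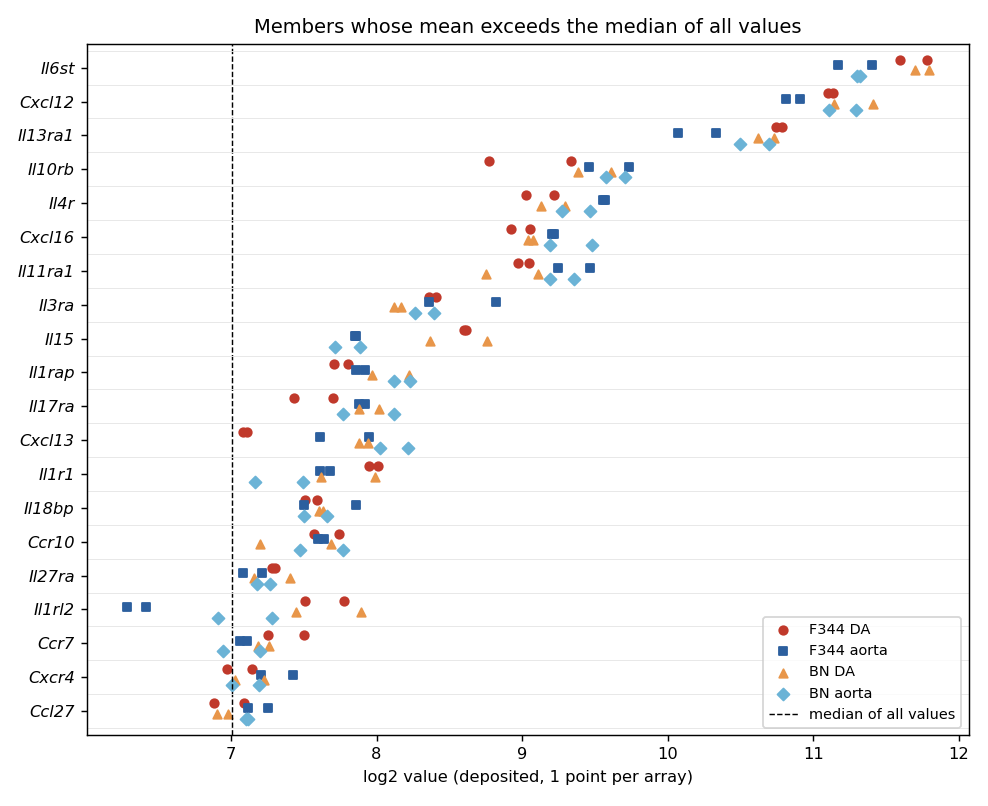
Log2 values of the 20 genes whose mean exceeds the median of all values (dashed line, 7.01), with 1 point per array and a colour and shape for each of the 4 groups. Il6st, Cxcl12 and Il13ra1 lie above 10 on all 8 arrays, and the F344 aorta arrays of Il1rl2 lie below the median at 6.29 and 6.42.

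DA and aorta were compared within F344 with limma, where a call means a p under 0.05 after Benjamini-Hochberg adjustment over all 14506 genes. Of the 109 genes 13 were called, 11 higher in DA and 2 lower, among them Il1rl2, Il15 and Il13ra1 higher and Cxcl13 and Il2rg lower. In this comparison 14.0% of all genes were called, 8.87% higher and 5.12% lower, so the share of these genes called, 11.9%, was near the background. Among genes above the median, 4 of 20 were called, 3 higher and 1 lower, against 2.13% higher and 7.89% lower over all genes of that level. Among the remaining 89 genes 8 were higher and 1 lower, against 18.4% higher and 1.18% lower over all genes of that level.

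Il1rl2, which encodes the interleukin-36 receptor, had the largest difference. It was at 7.77 and 7.51 in F344 DA and at 6.29 and 6.42 in F344 aorta, 2.44-fold higher in DA (log2 difference 1.29 ± 0.19 SE, n = 2 arrays a group, limma adjusted p = 0.003). The groups did not overlap, and the call held in all 17 alternative settings run for it. Il15, a cytokine that sustains natural killer cells and memory T cells, was at 8.60 and 8.62 in DA and at 7.86 and 7.85 in aorta, 1.68-fold higher (0.75 ± 0.15 SE, limma adjusted p = 0.011). Il13ra1 was at 10.79 and 10.75 in DA and at 10.33 and 10.07 in aorta (0.56 ± 0.14 SE, limma adjusted p = 0.0258). Both of these calls were lost when any 1 of the 4 F344 arrays was left out, with adjusted p up to 0.0809 for Il15 and up to 0.202 for Il13ra1.

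Cxcl13, the chemokine that draws B cells through Cxcr5, was lower in DA, at 7.11 and 7.08 against 7.95 and 7.61 (-0.69 ± 0.14 SE, limma adjusted p = 0.0138). Il2rg encodes the common gamma chain, which receptors for interleukins 2, 4, 7, 9, 15 and 21 share, and was at 5.38 and 5.66 in DA and at 6.95 and 6.42 in aorta (-1.16 ± 0.30 SE, limma adjusted p = 0.0315). Both F344 DA values of Il2rg were the lowest of the 8 arrays. Macrophage markers were also lower in F344 DA, at 7.20 and 7.07 against 7.74 and 7.48, and the median difference over their 15 genes was -0.49, with 4 called lower. Blood endothelial markers had a median of -0.57 with 5 of 10 lower, and adventitial fibroblast markers -0.47 with 4 of 10 lower and 1 higher. Smooth muscle markers had 0.23 with 2 of 8 higher. All the markers of these 3 types and 11 of the 15 macrophage markers lie above the median of all values. Over all genes of that level 7.89% were lower and 2.13% higher, with a median difference of -0.16. The part of these markers in the differences of Cxcl13 and Il2rg was not tested. After centring each array on genes brighter than the median, neither gene was called (-0.47, limma adjusted p = 0.0728 for Cxcl13 and -0.95, 0.0526 for Il2rg). The call of Il2rg was also lost when any 1 of the 4 F344 arrays was left out, and that of Cxcl13 without either F344 DA array or F344 aorta replicate 1.

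The other 8 genes called higher in F344 DA were below the median. Ccr1l1, a receptor gene closely related to Ccr1, was at 7.07 and 7.26 in DA and at 6.36 and 5.96 in aorta (1.00 ± 0.16 SE, limma adjusted p = 0.00476), and its probe set may bind transcripts of related receptors. Il18r1, the ligand-binding chain of the interleukin-18 receptor, was at 5.74 and 6.24 against 5.18 and 5.13 (0.84 ± 0.17 SE). Cxcr1, a receptor of neutrophil-attracting chemokines, was at 6.64 and 6.92 against 5.98 and 5.94 (0.82 ± 0.18 SE). Cxcl2, a neutrophil attractant, was at 6.02 and 5.87 against 5.31 and 5.19 (0.69 ± 0.13 SE). The remaining 4 were Cxcl11 (0.65), Il36g (0.60), Il12b (0.53) and Il5ra (0.53).

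Dim genes as a whole were higher in F344 DA. The median difference was 0.16 over the 89 genes below the median and 0.20 over all 6000 genes of that level, and it was -0.13 over the 20 brighter genes and -0.16 over all 8506 genes of that level. The count of these genes called higher and lower was 11 and 2 as deposited. It became 6 and 4 with quantile normalization repeated, 6 and 2 with cyclic loess, and 26 and 0 with arrays centred on brighter genes, which moved the median of all genes by 0.21. Il1rl2, Il15, Il13ra1, Ccr1l1, Cxcr1 and Il18r1 were called higher under all 3 of these scalings. The calls of Cxcr1 and Il18r1 were lost without F344 DA replicate 2 and without either F344 aorta array, and that of Ccr1l1 without F344 DA replicate 2. Cxcl2, Cxcl11, Il36g, Il12b and Il5ra were not called after quantile normalization or cyclic loess.

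**Figure D2:**
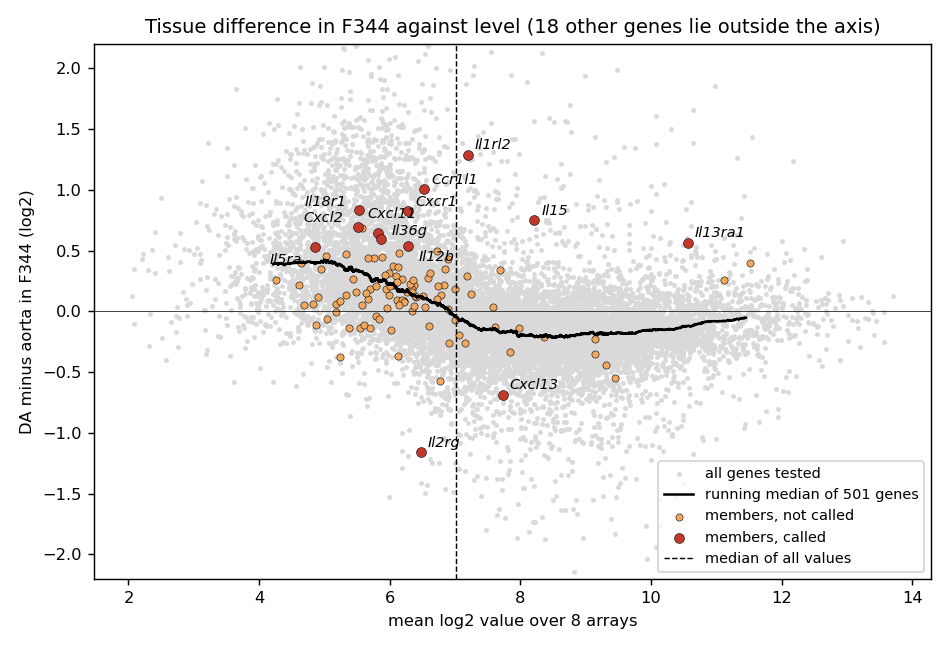
Difference DA minus aorta in F344 (log2) against the mean log2 value over 8 arrays, for all genes tested (grey), with a running median over genes (black line) and the 109 genes in orange (not called) or red (called). The running median is above 0 over most of the range left of the median of all values (dashed) and below 0 to its right, and Il1rl2, Il15 and Il13ra1 lie above the line on the bright side.

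Within BN, Ccl2 and Il15 were called higher in DA and 0 genes were called lower. The 2 calls are 1.83% of the 109 genes, and 1.81% of all genes were called in this comparison, 0.986% higher and 0.820% lower. Ccl2, the chemokine that recruits monocytes through Ccr2, was at 7.38 and 7.43 in BN DA and at 6.43 and 6.70 in BN aorta, 1.79-fold higher (0.84 ± 0.14 SE, limma adjusted p = 0.0268). Its 2 BN DA values were the highest of the 8 arrays. In F344 it was at 6.80 and 6.79 in DA and at 6.72 and 6.43 in aorta (0.22 ± 0.14 SE, limma adjusted p = 0.335). Il15 was at 8.76 and 8.37 in BN DA and at 7.89 and 7.71 in BN aorta, 1.70-fold higher (0.76 ± 0.15 SE, limma adjusted p = 0.0406).

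These calls rested on few arrays. Both were lost without either BN aorta array or either F344 DA array, in fits that leave 1 array in that group. The call of Il15 was also lost without either F344 aorta array, and that of Ccl2 was not. The F344 arrays enter the error of the BN difference and not its value. Over the alternatives the difference was 0.71 to 0.97 for Ccl2 and 0.57 to 0.96 for Il15. A fit with only the 4 BN arrays called 0 of the 109 genes and 16 of all genes, against 262 in the main fit. Without BN DA replicate 1, where T cell and thymocyte markers were high, Il15 had a difference of 0.57 and was not called. Il1rl2 was at 7.89 and 7.45 in BN DA and at 7.28 and 6.91 in BN aorta, so that its groups did not overlap, but it was not called (0.57 ± 0.19 SE, limma adjusted p = 0.192). Of the 5 largest differences the other 2 were also below the threshold, Ccl6 at -0.72 ± 0.24 SE (limma adjusted p = 0.204) and Il1f10 at -0.54 ± 0.14 SE (0.105).

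The tissue difference averaged over the strains sets the 4 DA arrays against the 4 aorta arrays. It called 15 of the 109 genes, 14 higher in DA and 1 lower, against 16.6% of all genes, 10.1% higher and 6.47% lower. Among genes above the median 5 of 20 were called, 4 higher and 1 lower, against 13.0% of all genes of that level, 3.14% higher and 9.85% lower. Among the other 89 genes 10 were higher and 0 lower, against 20.0% higher and 1.68% lower. The direction of these calls moved with the scaling. With quantile normalization repeated 7 genes were higher and 8 lower, with cyclic loess 9 and 4, and after centring on brighter genes 24 and 0. Over all genes the counts moved too, from 1464 higher and 939 lower as deposited to 1041 and 958, 1163 and 739, and 2224 and 435 in turn. Il15 (0.76 ± 0.11 SE, limma adjusted p = 0.00186), Il1rl2 (0.93 ± 0.13 SE, 0.00199), Ccr1l1 (0.65 ± 0.12 SE, 0.00563) and Ccl2 (0.53 ± 0.10 SE, 0.00767) were called under every alternative that gave them a value, 16 for Il15 and Il1rl2 and 15 for Ccr1l1 and Ccl2, which were not tested when dim genes were left out. Their DA and aorta arrays did not overlap, but these genes were picked by their calls.

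Further genes called in this average were Il6st (0.42 ± 0.09 SE, limma adjusted p = 0.0163) and Il1r1 (0.40 ± 0.11 SE, 0.0399), the signalling receptor of interleukin 1. Il6st had no overlap between tissues, with its lowest DA array at 11.60 and its highest aorta array at 11.41. Il1r1 read 7.95 and 8.01 (F344 DA), 7.61 and 7.68 (F344 aorta), 7.99 and 7.62 (BN DA), and 7.50 and 7.17 (BN aorta), so that 1 BN DA array lay among the aorta arrays. The call of Il1r1 was lost when any of 6 single arrays was left out, and that of Il6st without F344 DA replicate 1, F344 aorta replicate 2 or BN aorta replicate 1. Of the 7 interleukin-1 family receptor genes 3 were called higher, Il1rl2, Il1r1 and Il18r1, and 0 lower, and the median over the 7 was 0.10, where 10.1% of all genes were higher. Of the 18 groups into which the 109 genes fall, it had the most genes called higher, and each of the others had at most 2. The CXC ligand genes had 2 called higher and 1 lower. The group was singled out after the values of all groups were seen. The call of Il18r1 was lost with quantile normalization and with cyclic loess. The eosinophil attractant gene Ccl11 (0.39), the interleukin-36 ligand gene Il36a (0.37), the decoy receptor gene Il13ra2 (0.32), and Cxcr1, Cxcl11, Cxcl2 and Il5ra were the other genes called higher, all below the median of all values. Of these Ccl11, Il36a, Il13ra2, Cxcl2 and Il5ra were not called with quantile normalization or cyclic loess, and Cxcl11 was not called with the former. Cxcl13 was the gene called lower (-0.45 ± 0.10 SE, limma adjusted p = 0.0166), and it was not called after centring on brighter genes (-0.31, 0.091). With quantile normalization Ccl6, Cxcl6, Il10ra, Il1f10, Il33, Il6r and Il7r were also called lower, and with cyclic loess Il10ra, Il1f10 and Il7r.

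**Figure D3:**
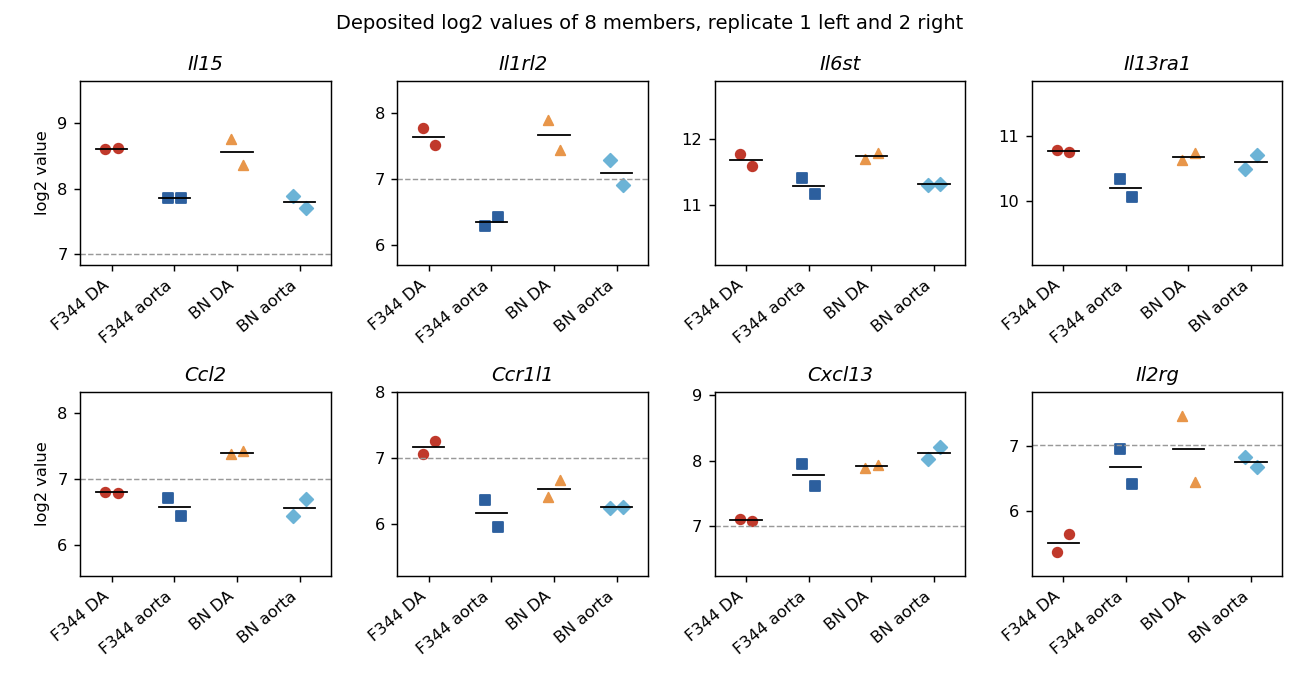
Log2 values of 8 genes in the 4 groups, with 1 point per array (replicate 1 left, replicate 2 right), the group mean as a black bar and the median of all values as a dashed line where it falls in range. Every panel spans 2.8 log2 units. Il15 and Il6st are higher in DA in both strains, Ccl2 is highest in BN DA, and Cxcl13 and Il2rg are lowest in F344 DA.

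Strains were compared within each vessel. In DA, 3 of the 109 genes were called higher in BN than in F344 and 0 lower, 2.75% against 4.53% of all genes, of which 2.43% were higher and 2.10% lower. Cxcl13 was at 7.88 and 7.94 in BN DA against 7.11 and 7.08 in F344 DA, 1.76-fold higher (0.82 ± 0.14 SE, limma adjusted p = 0.0208). Il2rg was at 7.45 and 6.44 against 5.38 and 5.66, 2.69-fold higher (1.43 ± 0.30 SE, limma adjusted p = 0.032), and Ccl2 was 1.52-fold higher (0.61 ± 0.14 SE, limma adjusted p = 0.0482). The arrays of the strains did not overlap for these 3 genes, but they were picked by their calls.

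The value of Il2rg in BN DA moved with 1 array. It was 1.01 log2 units apart between the replicates, the widest gap of the 109 genes in that group. The higher value lay on replicate 1, where T cell and thymocyte markers were also high. Without replicate 1 the strain difference of Il2rg was 0.92 (limma adjusted p = 0.0381), and without replicate 2 it was 1.93. The call was lost without either F344 DA array or either BN aorta array, and that of Cxcl13 without either F344 DA array. Ccr9, a homing receptor of thymocytes named here after its values were seen, was at 6.31 on the same array and between 5.50 and 5.68 on the other 7. Macrophage markers were at 7.41 and 7.64 in BN DA against 7.20 and 7.07 in F344 DA, and lymphatic endothelial markers, 5 genes, at 7.96 and 8.24 against 6.89 and 7.06. Their part in the differences of Cxcl13, Il2rg and Ccl2 was not tested. The call of Ccl2 was lost without any single array, with adjusted p up to 0.24.

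After centring on brighter genes, which moved the median of all genes by -0.14 in this comparison, Il2rg was still called, Cxcl13 (limma adjusted p = 0.0547) and Ccl2 were not, and Cxcl2 and Il5ra were called lower in BN DA. As deposited Cxcl2 had a difference of -0.52 ± 0.13 SE (limma adjusted p = 0.0535) and Ccr1l1 of -0.63 ± 0.16 SE (0.0618).

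In aorta 0 of the 109 genes were called by limma between the strains, where 0.159% of all genes were (0.0827% higher and 0.0758% lower), and 9 of the 109 (8.26%) had an unadjusted p under 0.05, against 5.22% of all genes. The 5 largest differences, none past the threshold, were Il1rl2 at 0.74 ± 0.19 SE (limma adjusted p = 0.386), the alarmin gene Il33 at -0.65 ± 0.18 SE (0.455), the interleukin-7 receptor gene Il7r at 0.53 ± 0.15 SE (0.489), Ccr2 at 0.47 ± 0.19 SE (0.908) and Il13ra1 at 0.40 ± 0.14 SE (0.734). Il1rl2 was at 7.28 and 6.91 in BN aorta and at 6.29 and 6.42 in F344 aorta, whereas its DA values in the strains overlapped. Il33 was at 7.545 and 6.9998 in F344 aorta and between 6.44 and 6.72 on the other 6 arrays. Averaged over both vessels, Cxcl13 was called higher in BN (0.58 ± 0.10 SE, limma adjusted p = 0.0247), 1 of the 109 genes or 0.917%, against 2.65% of all genes, 1.63% higher and 1.02% lower. That call was lost without any 1 F344 or BN aorta array. Il2rg (0.75 ± 0.21 SE, 0.0947) and Il33 (-0.44 ± 0.12 SE, 0.0978) followed without passing, and without BN DA replicate 2 Il2rg was called (1.00, limma adjusted p = 0.00552).

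The interaction term tests if DA and aorta differ by unequal amounts in the strains. Limma called 0 of the 109 genes and 0% of all genes, and 12 of the 109 (11.0%) had an unadjusted p under 0.05, against 9.67% of all genes. Il2rg (1.36 ± 0.42 SE, limma adjusted p = 0.377), Il18r1 (-0.73 ± 0.24 SE, 0.40), Ccr1l1 (-0.72 ± 0.23 SE, 0.398), Il1rl2 (-0.71 ± 0.27 SE, 0.451) and Cxcl2 (-0.69 ± 0.18 SE, 0.294) had the largest terms. So Ccl2 (0.62 ± 0.20 SE, limma adjusted p = 0.41), called in BN, and Cxcl13 (0.48 ± 0.20 SE, 0.492), called in F344, were not shown to differ between the strains in their tissue difference. Without BN DA replicate 2 Il2rg was called in the interaction (1.86, limma adjusted p = 0.0369). Il16, a chemoattractant for CD4+ cells, was lower in F344 DA (6.68 and 6.75) than in F344 aorta (6.94 and 7.02) and higher in BN DA (7.11 and 7.10) than in BN aorta (6.86 and 6.82), with no overlap in either strain, and its term of 0.53 ± 0.16 SE did not pass (limma adjusted p = 0.374). Il16 was named after its values were seen.

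The DA minus aorta differences of F344 and BN share no arrays. Over the 109 genes, which share the arrays' scaling and are no replicates of each other, they had a Pearson correlation of 0.51 and a Spearman correlation of 0.55, and 82 of the 109 (75.2%) had the same sign in both strains. Over all genes the Pearson correlation was 0.68 and 68.3% had the same sign. Over the 20 genes above the median the Pearson correlation was 0.83, against 0.66 over all genes of that level, and over the other 89 it was 0.37, against 0.67. Of the 14 genes called in at least 1 strain, Il15 was called in both, 12 in F344 and not in BN, and Ccl2 in BN and not in F344.

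**Figure D4:**
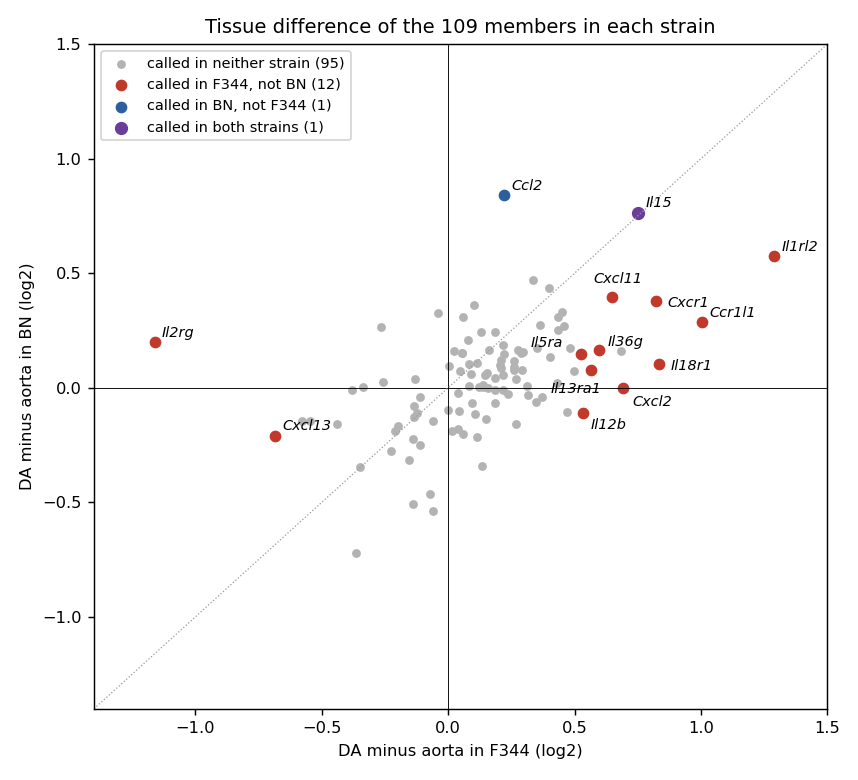
Difference DA minus aorta (log2) of the 109 genes in F344 (horizontal) and BN (vertical), coloured by the strain in which limma called them, with the dotted line marking equal differences. Il15 lies on the line at 0.75 and 0.76, most genes called in F344 lie below it, and Ccl2 lies above it.

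Of the 109 genes 90 were called in none of the 7 comparisons, 82.6% against 79.6% of all genes. With 2 arrays a group a missing call does not show that a gene did not differ. The 90 included Cxcl12 and its receptor Cxcr4, which was between 6.97 and 7.43 on every array, the chemokine receptor genes Ccr7 (mean 7.19) and Ccr10 (7.59), Il27ra (7.24) and Il18bp (7.61), the secreted antagonist of interleukin 18. Il4r (-0.44 ± 0.13 SE, limma adjusted p = 0.0589) and Il10rb (-0.54 ± 0.19 SE, 0.0966) had differences between DA and aorta in F344 that did not pass. Il11ra1 had differences of -0.35 in F344 and -0.34 in BN, neither past the threshold (limma adjusted p = 0.171 and 0.369). Cxcl16 had differences of -0.22 and -0.28 (0.293 and 0.41).

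Genes next to this family in its pathways were taken from 4 lists. In F344, of 10 atypical chemokine receptors and other chemokines 1 was higher in DA, Xcr1 (0.73), and 1 lower, Cx3cl1 (-0.96 ± 0.12 SE, limma adjusted p = 0.00146), the membrane-bound chemokine of endothelial cells. Of 24 related cytokines and receptors Cntfr was higher (0.86), and Lifr (-0.77), which pairs with gp130, and the macrophage growth factor gene Csf1 (-0.98) were lower. Of 19 genes of JAK-STAT signalling and its SOCS inhibitors 0 were higher and 1 lower, Stat4 (-1.52 ± 0.19 SE, limma adjusted p = 0.00169), and of 21 genes of interleukin-1 and NF-kB signalling 0 were higher and 1 lower, Irak3 (-0.48), a brake on that pathway. Over all genes 8.87% were higher and 5.12% lower, and among genes above the median, where 18 of the 19 and 19 of the 21 lie, 2.13% and 7.89%. The list medians were 0.10, -0.13, -0.22 and -0.27, beside -0.04 over all genes and -0.16 over genes above the median.

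In BN 0 genes of these 4 lists were called between the vessels. Averaged over the strains, Myd88 (-0.34) and Ikbkb (-0.30), both of interleukin-1 and NF-kB signalling, were also lower in DA, beside Irak3 (-0.47), which makes 3 of 21 lower and 0 higher, against 9.85% lower and 3.14% higher over all genes above the median. Between strains, Lifr (0.73) and the cardiotrophin gene Ctf1 (0.62) were higher in BN DA than in F344 DA, where 2.43% of all genes were higher and 2.10% lower. In aorta 0 of the genes in the 4 lists were called. Averaged over both vessels, Lifr was higher in BN (0.51, limma adjusted p = 0.0358). Cish, of the JAK-STAT and SOCS list, was lower in that average (-0.63, limma adjusted p = 0.0438), where 1.63% of all genes were higher and 1.02% lower.

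RefSeq promoter sequences (build GRCr8) were used for 83 of the 109 genes, as 250 bases before to 50 after the annotated start. A kappaB-type motif, GGG and TTTCC with any 2 bases between them, searched on both strands, was present in 10 of the 83 and in 1.53% of all 33469 promoters of this length. The 10 genes were Ccl20, Ccl9, Ccr3, Cxcl1, Cxcl2, Cxcl6, Il1rn, Il4r, Il6 and Il9. Of these Cxcl2 was called in F344 and 0 in BN, and the other 9 had differences in F344 between -0.44 (Il4r) and 0.35 (Il6). The STAT-type motif, TTC and GAA with any 3 bases between them, was in 11 of the 83 and 8.87% of all, the interferon-type motif, GAAA and GAAA with any 2 bases between them, in 8 and 3.92%, and TATAAA in 20 and 14.2%, all searched on both strands.

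The promoters of 3 genes whose calls are described above and of the neighbouring neutrophil attractant genes Cxcl2 and Cxcl1 are shown, with matches to any of the 4 motifs in capitals. They lie at chr19:42544456-42544755 (plus strand), chr9:50087302-50087601 (plus strand), chr14:13917871-13918170 (minus strand), chr14:17467206-17467505 (minus strand) and chr14:17479272-17479571 (minus strand), and are written 5′ to 3′ on the strand of the gene.
Il15 promoter: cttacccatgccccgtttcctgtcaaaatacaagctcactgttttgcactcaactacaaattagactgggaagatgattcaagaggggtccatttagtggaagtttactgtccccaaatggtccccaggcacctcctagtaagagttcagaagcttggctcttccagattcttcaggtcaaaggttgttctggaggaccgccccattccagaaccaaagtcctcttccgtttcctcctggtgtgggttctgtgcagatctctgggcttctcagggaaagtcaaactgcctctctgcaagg
Il1rl2 promoter: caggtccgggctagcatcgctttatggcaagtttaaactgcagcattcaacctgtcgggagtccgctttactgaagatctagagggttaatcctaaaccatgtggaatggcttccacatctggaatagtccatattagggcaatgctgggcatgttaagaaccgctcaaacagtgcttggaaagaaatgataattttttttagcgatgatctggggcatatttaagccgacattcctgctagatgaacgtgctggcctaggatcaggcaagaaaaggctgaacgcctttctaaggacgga
Cxcl13 promoter: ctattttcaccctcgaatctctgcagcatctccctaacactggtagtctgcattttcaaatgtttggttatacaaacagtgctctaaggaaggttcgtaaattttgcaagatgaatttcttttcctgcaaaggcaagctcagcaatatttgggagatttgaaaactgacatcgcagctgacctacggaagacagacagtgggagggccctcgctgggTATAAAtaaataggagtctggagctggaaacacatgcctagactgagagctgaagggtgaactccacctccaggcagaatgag
Cxcl2 promoter: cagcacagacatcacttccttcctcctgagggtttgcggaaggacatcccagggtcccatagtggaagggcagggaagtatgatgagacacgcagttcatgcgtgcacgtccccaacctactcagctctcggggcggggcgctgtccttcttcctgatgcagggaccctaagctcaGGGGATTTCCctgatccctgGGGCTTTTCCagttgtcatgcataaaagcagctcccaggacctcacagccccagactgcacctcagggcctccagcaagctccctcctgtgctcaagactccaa
Cxcl1 promoter: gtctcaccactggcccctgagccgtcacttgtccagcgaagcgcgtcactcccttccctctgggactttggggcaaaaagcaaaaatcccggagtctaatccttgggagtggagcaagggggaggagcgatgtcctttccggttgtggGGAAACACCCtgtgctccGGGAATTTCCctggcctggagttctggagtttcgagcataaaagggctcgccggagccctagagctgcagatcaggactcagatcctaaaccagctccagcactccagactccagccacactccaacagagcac
Cxcl2 holds 2 kappaB matches, GGGGATTTCC and GGGCTTTTCC, and Cxcl1 holds 2, GGAAACACCC and GGGAATTTCC, of which the first reads on the opposite strand. Cxcl13 holds TATAAA from base -33 to -28 before its start, and the windows of Il15 and Il1rl2 hold none of the 4 motifs. A match describes the letters and not a bound site. Cxcl1 read 6.98 and 6.74 (F344 DA) against 6.76 and 6.55 (F344 aorta), which overlap, and was not called (0.21, limma adjusted p = 0.409).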

How the data were processed

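The members, gene lists and tests were chosen with earlier results of these data known. The deposited values are log2 expression, 1 per probe set and array, with RMA named in the submitters' processing notes, a background correction with quantile scaling and probe summary. No source used here states its settings or the annotation build. Per the labels' protocols, 150 ng of total RNA from pooled tissues was labelled with biotin for each array. Values were used as deposited.

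Of 29215 probe sets, 15310 had 1 gene symbol in the platform annotation, 323 had several and 13582 were not listed and are unnamed here. The probe set with the highest mean was kept for each gene (14506 genes). All 109 members matched RefSeq genes (GRCr8) by Entrez number, with the same symbol.

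One limma model (version 3.58.1, R version 4.3.3) with a mean for each of 4 groups was fitted to all 8 arrays (4 residual and 5.2 prior degrees of freedom). The 7 contrasts were two-sided, and errors of differences are model standard errors. The fit was tested on simulated data, with 100 genes changed in F344 DA at each of 2 sizes. It called 41% of changes of 0.7 log2 units and 91% of changes of 1.4 between DA and aorta in F344. Unchanged genes were 2.22% of the calls. Fewer genes changed there than were called in these data. The number of arrays limits the precision. Named genes were every member called in any contrast, every member above the median and the 5 largest differences in each contrast. The alternatives run were eBayes with a trend, eBayes with the robust option, no dim genes, 3 scalings, the mean of probe sets, the replicate number as a block, only the arrays compared, and each array left out.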

Additional observations from a re-analysis of the deposited data

How the results depend on the processing

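For the 54 differences of single genes held for comparison, 855 alternative values were computed and 0 changed direction. Many alternatives alter only the error of a difference and not its value, so for them the direction was fixed in advance. The 54 were also chosen as called or among the largest, which makes a change of direction less likely. Of the 855, 163 lost the call, 15 gained it, and 677 stayed on the same side of the threshold. The number of these genes above the median was between 15 (median over the genes kept) and 22.

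Counts moved more. For DA against aorta in F344 there were 13 calls (2028 of all genes). They became 4 without dim genes (766 of all genes) and 8 after cyclic loess (1446 of all genes). They became 26 after centring on brighter genes (2516 of all genes) and 24 with only the 4 arrays compared (3363 of all genes). In BN they were 1 without dim genes, and 0 with only the arrays compared (16 of all genes, against 262). Between strains in DA they were 1 without dim genes, and 0 with only the arrays compared (118 of all genes, against 657); in aorta 56 of all genes, against 23, were called with only the arrays compared. For the tissue average the 15 calls became 5 without dim genes (1045 of all genes, against 2403) and 24 after centring (2659 of all genes). For the strain average they became 0 after centring (220 of all genes, against 384). The share of all calls that were higher in DA in F344 was 56.9% after quantile normalization, 65.4% after cyclic loess and 87.8% after centring.

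The labels number the replicates alike in all groups. Same-numbered arrays deviated together with correlations between 0.0279 and 0.521 over all genes, 5 of the 6 over 0.1, among them the 4 between groups that are compared directly (0.148 to 0.521). The mean of the erythroid markers was larger on the array numbered 1 in each group: 7.40 against 6.71 (F344 DA), 6.91 against 6.44 (F344 aorta), 7.80 against 6.94 (BN DA) and 7.28 against 6.88 (BN aorta). No label says what a shared number marks and there are only 2 numbers, so the samples were not treated as paired, and whether they are is not known. With the replicate number as a block, 21 of the 109 genes were called in F344 (2875 of all genes). Between strains in DA 5 were called (1583 of all genes). In the tissue average 24 were called (3218 of all genes) and in the strain average 3 (966 of all genes). In BN 548 of all genes and in the interaction 2 of all genes were called.

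Leaving out 1 array at a time gave between 2 and 20 of the 109 genes (646 to 2850 of all genes) in F344, 0 to 3 (16 to 600) in BN, 0 to 5 (13 to 1233) between strains in DA, 0 (0 to 69) in aorta, 0 to 1 (0 to 56) in the interaction, 6 to 20 (1361 to 3184) in the tissue average and 0 to 4 (55 to 1015) in the strain average. The lowest counts in F344 came without F344 DA replicate 2 or F344 aorta replicate 1, and the highest without either BN DA array. The cause of these changes was not tested. Of the 109 genes 89 lie below the median of all values. No background level was measured, so how far background limits what can be seen for them is not known.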
